A study of Caenorhabditis elegans with 22 samples.

Results

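The histone genes of Caenorhabditis elegans were followed through small RNA, total RNA and polyadenylated mRNA of whole adults. They were taken as every gene whose deposited name was his- followed by a number, which gave 70 genes among the 46780 IDs of the complete small RNA tables. By class they were 17 H2A, 16 H2B, 20 H3 and 16 H4 genes, and the linker histone H1 gene his-24. No expression value was used to choose them.

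Worms were grown at 20 °C and collected 70 h after L1 arrest, as young adults that held embryos. Small RNA of 18 to 28 nt and ribosome-depleted total RNA each had 2 libraries per genotype: the wild type, the single mutant eri-6, the adr double mutant (adr-1;adr-2) and the triple mutant (adr-1 eri-6;adr-2). Polyadenylated mRNA had 1 library per condition, of the wild type N2 and the triple mutant fed drh-1, nrde-3 or control (L4440) RNAi bacteria. The small RNA wild-type libraries were GR1831, which carries the transgene mgIs30, as replicate 1 and N2 as replicate 2. The small RNA libraries of the adr double mutant were BB4, labelled gv6 and gv42, as replicate 1 and BB21, labelled tm668 and ok735, as replicate 2. The eri-6 strain was GR1814 (mg379) and the triple mutant was GR1744 (gv6, mg379 and gv42) in every assay. In total RNA the wild type was N2 and both libraries of the adr double mutant were labelled BB4 with the alleles tm668 and ok735, which are the BB21 alleles in the small RNA labels. Because the strains differ within wild type and within the adr double mutant, their spread also holds differences of strain. The labels name no separate cultures for the remaining groups, so p-values measure only the spread between these samples.

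Histones are the proteins around which DNA is wound: H2A, H2B, H3 and H4 form the nucleosome core, and H1 binds the linker DNA between cores. In animals most core histone genes are made during DNA replication, lie in clusters of near-identical copies, and give mRNAs whose 3′ end is a stem-loop and not a poly(A) tail, while replacement genes such as the H3.3 genes his-71 and his-72 are spliced and polyadenylated. In worms the Argonaute CSR-1 and its small RNAs act in the maturation of replication-dependent histone mRNAs. ADR-1 and ADR-2 are the worm ADAR proteins, of which ADR-2 edits adenosine to inosine in double-stranded RNA, and eri-6 is needed for a class of endogenous siRNA.

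On build WBcel235, 58 of the 70 genes lay in 7 clusters of at least 4 genes, with gaps of at most 100 kb inside a cluster. The largest were V-b, with 14 genes at chromosome V, 8847393 to 8898539, II-b, with 13 genes at chromosome II, 13817760 to 13828697, and IV-c, with 12 genes at chromosome IV, 11324056 to 11407427. V-a (chromosome V, 8532715 to 8536716) held 5 genes and V-d (chromosome V, 16040144 to 16042831) held 4. Copies within a class were uniform in length: 15 of 17 H2A genes spanned 384 bp, 15 of 20 H3 genes 411 bp and 15 of 16 H4 genes 312 bp. Even so, no histone gene had the same reads as another gene in all 6 libraries with complete small RNA tables, whereas 4427 of the 24342 genes that averaged 10 or more reads did. Reads shared between near-identical copies may still have been split among them, so values of single copies are less certain than sums over a class.

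Small RNA depth, recovered as whole reads from the deposited values, ran from 10904105 to 32303754 reads over the 6 libraries of wild type, eri-6 and the adr double mutant. The sources used here do not say whether reads were counted by strand, so small RNA antisense and sense to the histone genes cannot be told apart. Of the 70 genes, 10 overlapped another annotated gene, so their reads may not all be their own. Among them were 6 H2A or H2B genes, his-4, his-8, his-16, his-20, his-54 and his-57.

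The comparison of adr-1;adr-2 with wild type asked which small RNAs change when editing is lost. Small RNA of the nucleosome's H2A and H2B genes was higher in both adr-1;adr-2 libraries than in either wild-type library. The H3 and H4 sums of adr-1;adr-2 were 0.786 to 1.48 times those of the same-numbered wild-type library. Summed over the 17 H2A genes, small RNA was 39.1 and 85 CPM (reads scaled to the library's total recovered reads) in wild type replicates 1 and 2, and 222 and 534 CPM in the adr double mutant. Over the 16 H2B genes it was 26.1 and 62.7 CPM in wild type and 226 and 473 CPM in the mutant. Within replicates 1 and 2 the adr-1;adr-2 sums were 5.69 and 6.28 times those of wild type for H2A, and 8.69 and 7.55 times for H2B. No label says that a replicate number marks a shared batch. Across numbers the gap was smaller: the lowest mutant sums, 222 CPM for H2A and 226 for H2B, stood against highest wild-type sums of 85 and 62.7.

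The H3 sum was 49.3 and 49.1 CPM in wild type and 49.6 and 72.5 CPM in the adr double mutant. Without the H3 variant gene his-70, which took 15.3 CPM of the first of these values, it was 34 and 48.9 CPM in wild type and 46 and 72.1 CPM in the mutant. The mutant was then 1.35 and 1.48 times as high within replicates 1 and 2, although its replicate 1 lay below wild-type replicate 2. The H4 sum was 69.5 and 141.8 CPM in wild type and 75.1 and 111 CPM in the mutant, with groups that overlapped. H2A and H2B together therefore took 35.4% and 43.6% of core histone small RNA in wild type, against 78.3% and 84.6% in the adr double mutant. In eri-6 the same share was 38.4% and 37.5%.

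**Figure D1:**
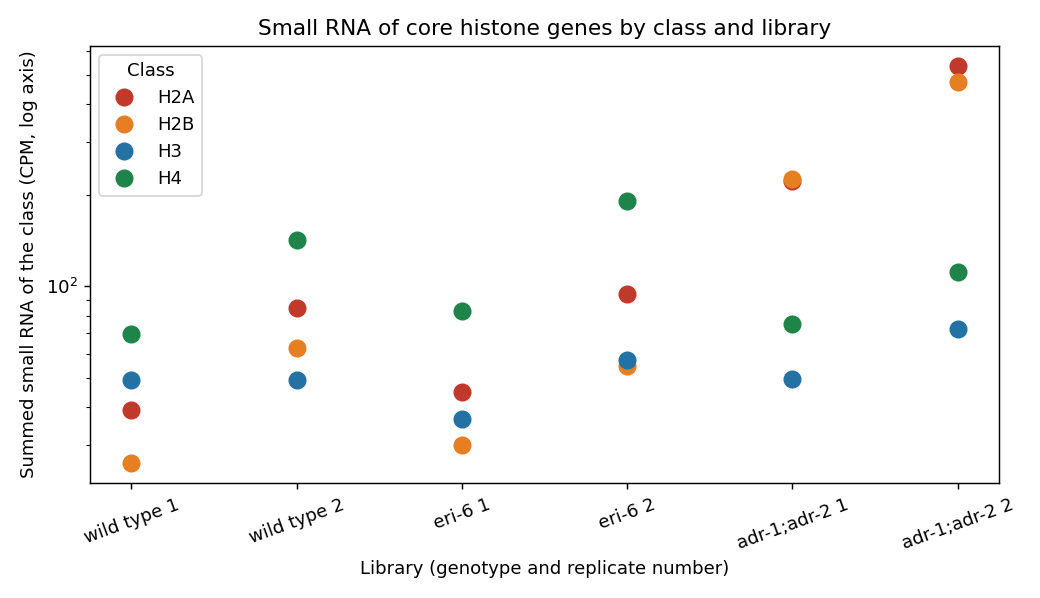
Small RNA summed over each core histone class (CPM, log axis) in the 6 libraries with complete tables, with 1 point per library. The H2A and H2B points of adr-1;adr-2 lie between 222 and 534 CPM, above the 26.1 to 94.5 CPM of wild type and eri-6, while the H3 points of all genotypes lie between 36.6 and 72.5 CPM and the H4 points between 69.5 and 191 CPM.

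By gene, all 17 H2A genes and all 16 H2B genes had both adr-1;adr-2 values above both wild-type values, on the authors' normalised reads. Over all classes 39 of the 69 tested histone genes were higher in this sense, against 7.3% of the 23975 genes tested, and 5 were lower, against 9.48%. The higher genes beyond H2A and H2B were the H4 gene his-18 and 5 of the 19 tested H3 genes, his-6, his-13, his-27, his-40 and his-42. The H3 gene his-40 led them, with 24 and 45.5 normalised reads against 9.80 and 2.83 in wild type, a log2 difference of 2.41. A stricter reading, every adr-1;adr-2 value plus 1 at least 4-fold above every wild-type value plus 1, held for 11 histone genes, 6 H2A and 5 H2B, against 0.617% of all genes. The H2B gene his-62, with 318 and 531 normalised reads against 51.7 and 79.2, passes that fold without the added 1 and misses it with it. At least 4-fold below in the same sense were 0 histone genes, against 0.0751%. With limma on log2 of the value plus 1, 0 histone genes and 0 of all genes passed the adjusted p of 0.05 in either direction, while 26 histone genes and 324 genes in all, or 1.35%, had an unadjusted p under 0.05. On recovered reads edgeR called 0 histone genes, and DESeq2 called 9, all higher: his-3, his-7, his-19, his-20, his-21, his-22, his-51, his-52 and his-53. The share of all genes that DESeq2 called is not given here, so the 9 calls have no background.

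The median log2 difference was 2.60 over H2A, 2.94 over H2B, 0.44 over the 19 tested H3 genes and −0.045 over H4 (0.032 with TMM scaling), with 1.52 over all histone genes and −0.049 over all genes. Within replicate 1 the H2A and H2B medians were 1.86 and 2.84, and within replicate 2 they were 3.48 and 2.91. The lowest H2A or H2B gene still ranked at place 36 of the 69, and the first H4 gene stood at place 40.

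The genes with the largest differences were those of V-a, V-b and V-d. The H2A gene his-19 (WBGene00001893, chromosome V, 8895765 to 8896148) had 362 and 713 normalised reads in adr-1;adr-2 and 9.80 and 19.8 in wild type. Its log2 difference was 5.09 ± 0.97 (SE), with a limma adjusted p of 0.39. The next H2A genes were his-21 at a log2 difference of 4.78, his-7 at 4.74, his-51 at 4.68, his-53 at 4.64 and his-3 at 4.13.

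These 6 H2A genes, spread over 3 clusters, had close values in each library of the adr double mutant and a wider relative spread in wild type. They spanned 281 to 362 normalised reads in BB4 (replicate 1) and 620 to 736 in BB21 (replicate 2). In wild type they spanned 8.91 to 16 and 18.4 to 39.6. These are 10 to 18 and 13 to 28 recovered reads, and at such counts a relative spread is imprecise. The highest wild-type value of any of the 6 genes was below the lowest adr-1;adr-2 value by several times.

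The H2B genes of the same clusters came next, led by his-52 (WBGene00001926, chromosome V, 8850464 to 8850835). It had 403 and 952 normalised reads in adr-1;adr-2 against 18.7 and 72.1 in wild type. Its log2 difference was 4.03 ± 1.02 (SE), with a limma adjusted p of 0.982. After it came his-39 at 3.98, his-22 at 3.71 and his-54 at 3.63. The anchor H2B gene of V-d, his-4, had 530 and 1194 normalised reads against 41 and 139. Both his-4 and his-54 overlap an annotated ncRNA gene, so these reads may not all be their own.

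**Figure D2:**
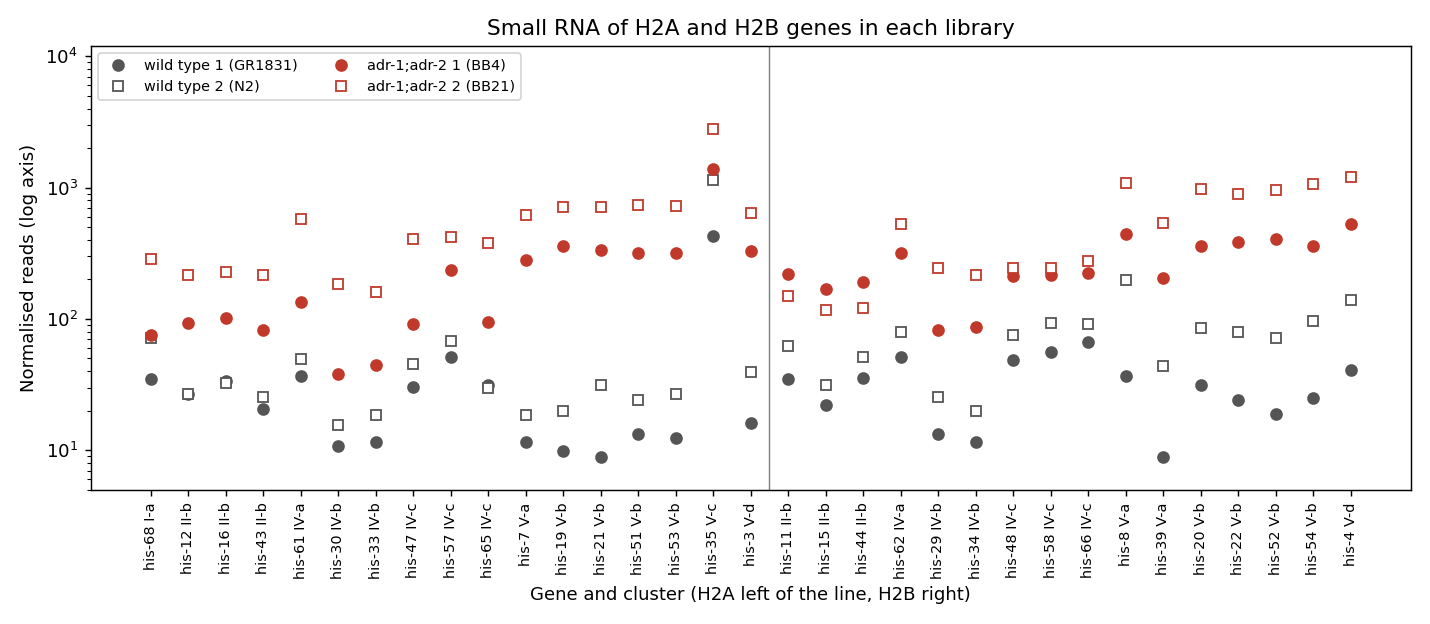
Normalised small RNA reads (log axis) of the 17 H2A genes (left of the line) and 16 H2B genes (right) in each wild-type (grey) and adr-1;adr-2 (red) library, ordered by cluster. Filled circles are replicate 1 and open squares replicate 2. Every red symbol of a gene lies above both of its grey symbols, and the gap is widest for the H2A genes of V-a, V-b and V-d.

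H3 and H4 neighbours in the same clusters had smaller differences, all above 0. Over the 5 H3 genes of V-a, V-b and V-d the median log2 difference was 1.30, and 2 of them had groups that did not overlap. Over the 5 H4 genes there it was 0.55, and 1 was higher without overlap. The neighbours his-1 (H4) and his-2 (H3), which share V-d with his-3 and his-4, had log2 differences of 0.54 and 0.077. For his-2 the values were 21.9 and 39.8 normalised reads in adr-1;adr-2 against 24.1 and 32.5 in wild type, so the groups overlapped.

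The 13 H2A and H2B genes of V-a, V-b and V-d had log2 differences of 3.01 to 5.09, and the 20 at other loci 1.49 to 3.10, so the ranges met at his-8 of V-a and his-34 of IV-b. This grouping was not planned and joins the clusters with the largest differences, so the split of the ranges follows from that choice. It leaves out V-c, also on chromosome V, whose H2A gene his-35 had the 1.49. In IV-b the medians were 2.53 for 2 H2A genes and 2.99 for 2 H2B genes, and in IV-a his-61 (H2A) had 2.68 and his-62 (H2B) 2.66. In II-b the 3 H2A genes had a median log2 difference of 2.36 and the 3 H2B genes 1.94. In IV-c the medians were 2.40 for 3 H2A genes and 1.66 for 3 H2B genes. H2A genes of both clusters were higher in BB21 than in BB4, whereas the 3 H2B genes of II-b were higher in BB4: 169 to 219 normalised reads there against 117 to 150 in BB21. The 3 H4 genes of II-b differed between these libraries as well. They had 39.6 to 44.6 normalised reads in BB4, close to the 43.7 to 48.1 of wild type replicate 1. In BB21 they had 9.10 to 21.6, which are 8 to 19 recovered reads, below the 45.3 to 56.6 of wild type replicate 2. BB4 and BB21 are a single small RNA library each, so a difference of strain and one of library cannot be told apart.

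**Figure D3:**
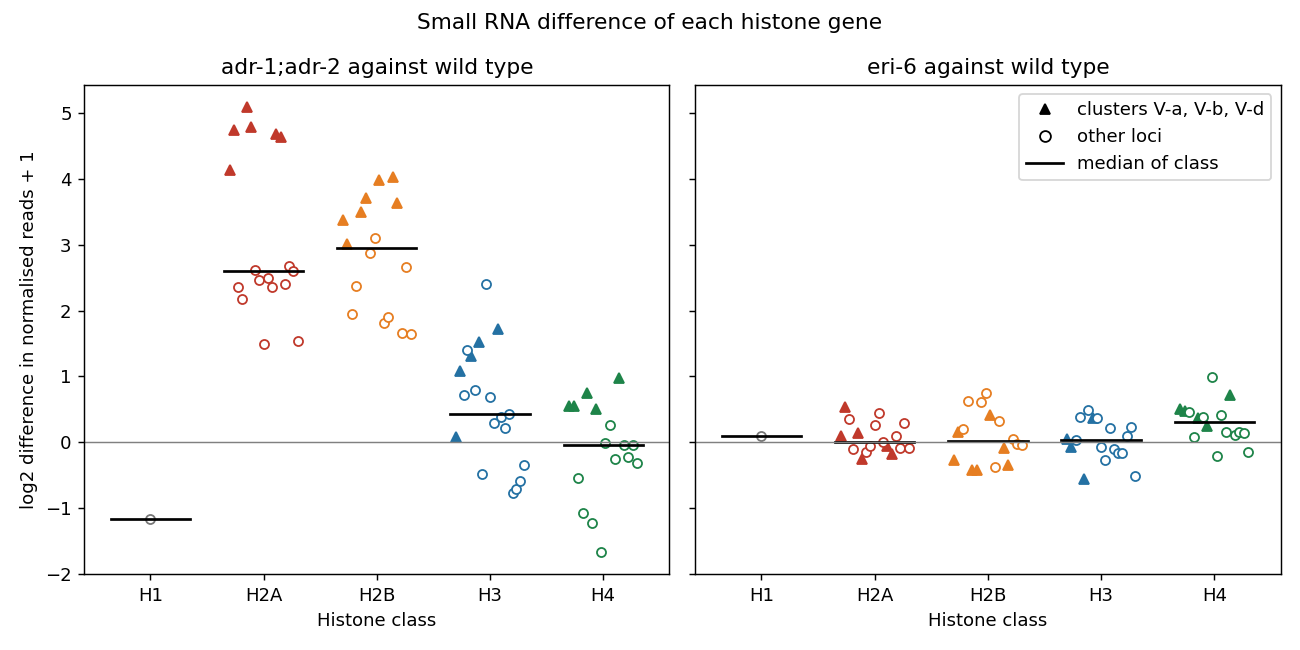
Log2 difference in normalised reads plus 1 against wild type for each tested histone gene by class, in adr-1;adr-2 (left) and eri-6 (right). Triangles mark V-a, V-b and V-d, open circles other loci, and black lines the class medians. H2A and H2B medians are 2.60 and 2.94 in the adr double mutant and 0.0096 and 0.012 in eri-6.

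Several genes had patterns of their own. The H2A gene his-35, which spans 630 bp, had the highest small RNA level per kilobase of its class in wild type, 62.6 CPM per kilobase. It had 1387 and 2777 normalised reads in adr-1;adr-2 and 430 and 1140 in wild type. The lowest adr-1;adr-2 value exceeded the highest wild-type value by a small margin, and the log2 difference, 1.49, was the lowest of any H2A gene.

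The H1 gene his-24 carried the most small RNA of any histone gene, at 404 and 1046 CPM in wild type. It overlaps the annotated ncRNA genes M163.16 and M163.19, so these reads may not all be its own. It had 7146 and 4679 normalised reads in adr-1;adr-2 and 8161 and 20704 in wild type, which did not overlap. Its log2 difference of −1.17 ± 1.01 (SE) came mostly from replicate 2, at −2.15, against −0.19 in replicate 1.

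The H3.3 gene his-72 had 118 and 159 normalised reads in adr-1;adr-2 and 187 and 228 in wild type, a log2 difference of −0.59 with no overlap. The other H3.3 gene, his-71, had a log2 difference of −0.71 with groups that overlapped. The H4 gene his-31 (chromosome IV, 8333672 to 8333983) had 62.2 and 289 normalised reads in adr-1;adr-2 and 339 and 542 in wild type, at −1.66 the lowest of all. Other low values were −1.22 for his-26 and −1.07 for his-14, both H4 genes of II-b.

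The H3 variant gene his-70 had 308 normalised reads in wild type replicate 1 and 4.24 in replicate 2, and its log2 difference was −0.77. Summed small RNA of 26 sperm genes moved with it, at 174 CPM in wild type replicate 1 and 7.07 in replicate 2, with 6 of the 26 at 0 in the latter. The part of sperm RNA in the his-70 values was not tested. The H3 variant gene his-69 was too low to be tested, at 0.18 and 0.57 CPM in wild type.

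The genes that handle histone mRNA did not share the H2A and H2B pattern. Of 13 tested genes of 3′ end processing and the CSR-1 pathway, 0 passed limma in adr-1;adr-2, 0 had an unadjusted p under 0.05, and 4 were lower without overlap, against the 9.48% of all genes. Their median log2 difference was −0.47, beside −0.32 for 14 histone chaperones, −0.55 for 20 DNA replication genes and −0.50 for 10 other histone and H1 genes such as htz-1. Among marker lists, summed small RNA of 10 neuron genes was 41.7 and 61.3 CPM in wild type and 91.4 and 264 in adr-1;adr-2. Of these, rab-3 took 35.1 CPM in replicate 1 and egl-21 took 182 CPM in replicate 2, and the median log2 difference of the 9 tested neuron genes was 0.25. Summed small RNA of 10 germline genes was 436 and 725 CPM against 359 and 593. Their part in the histone values was not tested.

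In eri-6 the histone genes stayed close to wild type. The median log2 difference over 67 tested genes was 0.096, with 0.0096 over H2A and 0.012 over H2B (−0.019 and −0.017 with TMM scaling), 0.041 over H3 and 0.31 over H4. Values of 7 genes lay above wild type without overlap, against 5.67% of all genes, and 1 lay below, against 7.4%. By the 4-fold reading 0 histone genes differed, against 0.0984% of all genes higher and 0.672% lower. Limma called 0 of the 23380 genes tested, and 237 (1.01%) had an unadjusted p under 0.05, of which 0 were histone genes. DESeq2 and edgeR also called 0 histone genes.

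The largest eri-6 difference was in his-31, which had 614 and 1016 normalised reads in eri-6 against 321 and 486 in wild type, a log2 difference of 1.00. It was followed by his-34 (H2B) at 0.74, his-50 (H4) at 0.72, his-15 (H2B) at 0.62 and his-29 (H2B) at 0.61. At the other end were his-17 at −0.56 and his-73 at −0.51, both H3 genes. For his-34 the values were 21.8 and 26.6 normalised reads against 11 and 17.8, which did not overlap.

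Set directly against eri-6 on recovered reads, adr-1;adr-2 was higher for all 17 H2A and all 16 H2B genes, with no overlap in any of them. Over all classes 36 histone genes were higher without overlap, against 7.84% of the 24342 genes tested, and 3 were lower, against 7.14%. Every library of the adr double mutant was at least 4-fold above both eri-6 libraries, on CPM plus 1, in 12 histone genes, against 0.727% of all genes, and as far below in 0, against 0.0904%. Limma called 30 genes higher (0.123%) and 1 lower (0.00411%) in the whole table, and 0 of them were histone genes. An unadjusted p under 0.05 was reached by 571 genes (2.35%), of which 29 were histone genes. DESeq2 called 12 histone genes, all H2A or H2B genes of V-a, V-b and V-d, but its share over all genes is not given here. The median log2 difference was 2.59 for H2A, 2.59 for H2B, 0.64 for H3 and −0.085 for H4. The comparisons of each mutant with wild type share their wild-type libraries.

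For the triple mutant, the small RNA table held 381 genes that the authors had selected, so values in it are descriptions. Of the selected genes, 280 (73.5%) were higher than in wild type and the others lower. It listed 6 histone genes, his-15, his-16, his-25, his-47, his-61 and his-62, at log2 differences of 1.38 to 1.82 against wild type. That is 8.57% of the histone genes, where 0.814% of all gene IDs were listed. The 2 shares are not like for like, because all IDs include many with few reads. In the adr-1;adr-2 comparison 23975 of 46780 IDs had enough reads to be tested, against 69 of 70 histone genes. The H3 gene his-25 had 111 and 310 normalised reads against 44.9 and 60.2 in wild type. The H2A gene his-61 had 74 and 284 against 42.9 and 58.5. None of the H2A or H2B genes of V-a, V-b and V-d was among the 6. The 64 histone genes outside the selection have no triple mutant small RNA value here, so their absence says nothing of their level.

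Total RNA was deposited as 1 FPKM value for each genotype, with bounds below and above it, and a gene was called where bounds did not overlap. Of the histone genes, 45 were above 0 in at least 1 genotype, so the counts of called histone genes below are out of at most 45. In 25 histone genes the value was listed at 0 in all 4 genotypes and in every mRNA value, which includes his-19, his-21, his-51 and his-53. These genes have small RNA reads, and near-identical copies in V-b were all listed at 0 for H2A and H2B, so such zeros may be failed estimates and are not read as absence. Of the 10 largest small RNA differences in adr-1;adr-2, 7 belonged to genes listed at 0 throughout. In bulk RNA, fewer cells of a type and less RNA per cell cannot be told apart.

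In wild type the most abundant histone RNAs per length were H4 transcripts. The H4 gene his-64 stood at 6224 FPKM (bounds 3462 to 8987) and his-60 at 4049 FPKM. The other H4 genes of IV-c, his-46 and his-56, were listed at 4.13 and 0 FPKM. The his-64 value may therefore hold reads of near-identical copies. Of the other classes, his-61 led H2A at 1057 FPKM, his-62 led H2B at 683 FPKM and his-63 led H3 at 506 FPKM. The median over the 37 histone genes of at least 1 FPKM was 112.7 FPKM.

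In adr-1;adr-2 total RNA, 6 histone genes were lower than in wild type, against 9.72% of all genes, and 1 was higher, against 14.4%. Among them, his-11 and his-25 of II-b fell the furthest. The H2B gene his-11 (WBGene00001885, chromosome II, 13821809 to 13822177) had 469 FPKM in wild type (bounds 348 to 589), 636 in eri-6, 33.6 in the adr double mutant (bounds 23.5 to 43.7) and 214 in the triple mutant (bounds 160 to 267). It was 13.9 times lower in adr-1;adr-2 than in wild type, and the triple mutant lay between them with bounds apart from both. The other H2B genes of II-b, his-15 and his-44, were listed at 0 and 0.58 FPKM in wild type. The his-11 value may hold reads of these near-identical copies, so the fall may not belong to his-11 alone.

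The H3 gene his-25 (WBGene00001899, chromosome II, 13824849 to 13825259) had 105 FPKM in wild type, 110 in eri-6, 9.15 in the adr double mutant and 31.4 in the triple mutant. It was 11.5 times lower in adr-1;adr-2, and the order of genotypes matched that of his-11. The other H3 genes of II-b, his-9, his-13 and his-42, were listed at 0, 0 and 0.32 FPKM in wild type, so the same limit holds for his-25. Small RNA of his-11 was 219 and 150 normalised reads in adr-1;adr-2 against 34.8 and 62.2 in wild type. That of his-25 was 127 and 46.6 against 38.3 and 50.9, which overlapped. Over 37 histone genes the small RNA and total RNA differences of adr-1;adr-2 had a Spearman's rho of 0.088, so his-11 does not stand for the others.

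The other 4 lower genes changed by less. The H2A gene his-35 had 173 FPKM in wild type and 74.5 in adr-1;adr-2, and his-31 had 151 and 65.8. The H3.3 gene his-71 had 71.9 and 27.1, and the H4 gene his-67 had 1130.3 and 623. The other H3.3 gene, his-72, was the gene that was higher, at 51.8 FPKM in wild type and 92.0 in adr-1;adr-2.

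**Figure D4:**
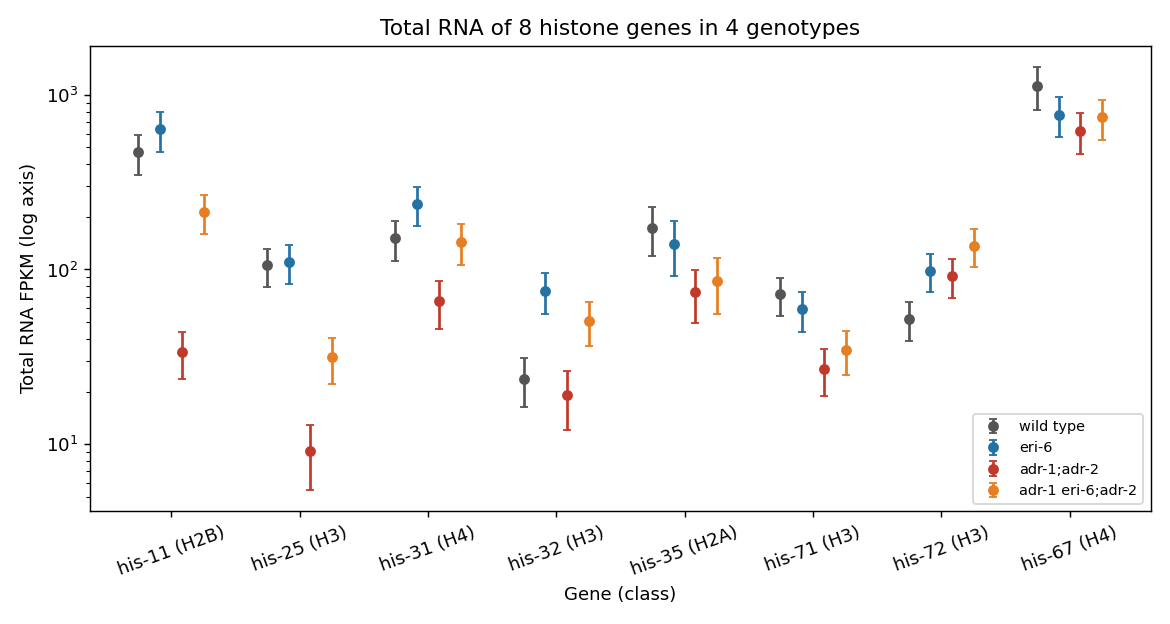
Total RNA FPKM (log axis) of 8 histone genes called against wild type in adr-1;adr-2 or eri-6. Points are the authors' value per genotype over both libraries and bars their deposited lower and upper bounds. In his-11 and his-25 the adr-1;adr-2 values of 33.6 and 9.15 FPKM lie below every other genotype, while his-72 is above wild type in each mutant.

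Over histone genes of at least 1 FPKM the median log2 difference in adr-1;adr-2 was −0.40, against 0.13 over all genes. By class it was −0.70 for 8 H2A genes, −0.33 for 5 H2B, −0.15 for 13 H3 and −0.75 for 10 H4 genes. Summed FPKM of H2A and H2B genes was 22.1% of the core histone sum in wild type and 21.9% in adr-1;adr-2, but 16 of the 33 H2A and H2B genes, 7 of the 10 largest small RNA differences among them, were listed at 0 throughout, so these shares do not cover them. The H4 sum was 12931 FPKM in wild type and 7943 in adr-1;adr-2.

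In eri-6 total RNA, his-32 and his-72 were higher, against 8.76% of all genes, and his-45 was lower, against 5.03%. Out of 45 histone genes, neither count was above the share over all genes. The H3 gene his-32 had 23.7 FPKM in wild type, 75.1 in eri-6, 19.1 in the adr double mutant and 51 in the triple mutant. The H3.3 gene his-72 had 98.4 FPKM in eri-6 and 137 in the triple mutant, so it was above its wild-type bounds in all 3 mutants. The H3 gene his-45 had 28.7 FPKM in eri-6 against 50.4 in wild type.

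In triple mutant total RNA, 6 histone genes were higher than in wild type, against 15.5% of all genes, and 4 were lower, against 12.6%. Here too, out of 45 histone genes, neither count was above the share over all genes. The higher genes were his-4, his-18, his-32, his-40, his-56 and his-72. The H2B gene his-4 had 37.7 FPKM in wild type and 71.2 in the triple mutant, and the H4 gene his-18 had 159 and 281. The gene his-56 was listed at 0 in wild type and at 1.35 FPKM in the triple mutant, so it counts as higher only if that 0 is a level and not a failed estimate. The lower genes were his-11, his-25, his-35 and his-71.

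Between mutants, 6 histone genes were lower in adr-1;adr-2 than in eri-6, against 5.79% of all genes, and 0 were higher, against 6.87%. These calls come from bounds alone, with no p-value. They were his-11, his-25, his-31, his-32, his-37 and his-71. The triple mutant was above adr-1;adr-2 in his-11, his-18, his-25, his-31, his-32 and his-47, 6 genes, against 1.91% of all genes, and below it in 0, against 2.78%. Against eri-6 the triple mutant was higher in 6 histone genes, his-56 with its 0 in eri-6 among them, against 6.53%, and lower in 2, his-11 and his-25, against 8.61%.

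Genes of DNA replication and the germline were higher in the same total RNA samples. In adr-1;adr-2, 15 of 16 tested DNA replication genes were higher, as were 7 of 9 genes of 3′ end processing and the CSR-1 pathway, 6 of 8 histone chaperones, 9 of 10 germline, 9 of 9 oocyte and early embryo and 13 of 25 sperm genes, with 0 lower in these lists. Over all genes 14.4% were higher and 9.72% lower. The stem-loop binding protein gene cdl-1 had 15.5 FPKM in wild type and 35.7 in adr-1;adr-2. The H2A.Z gene htz-1 had 70.0 FPKM in wild type and 155 in adr-1;adr-2. Summed FPKM was 159 in wild type and 937 in adr-1;adr-2 for oocyte and early embryo genes, and 3742 and 1312 for intestine genes, of which 6 of 9 were lower. The part of these differences in the histone values was not tested.

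Histone genes were far more abundant in total RNA than in mRNA. In wild type, the ratio of total RNA to mRNA FPKM had a median of 55.6 over histone genes of at least 1 FPKM in total RNA and above 0 in mRNA, against 0.578 over 9676 genes of at least 1 FPKM. Only 3 of 37 histone genes were higher in mRNA, against 63.7% of all genes. The ratios compare FPKM from different libraries, kits, foods and tables, and are descriptions. The H4 gene his-64 had 6224 FPKM in total RNA and 8.25 in mRNA, with the limit on near-identical copies given above.

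The 3 exceptions were his-24, his-37 and his-72. The H3.3 gene his-72 had 51.8 FPKM in total RNA and 455 in mRNA, the highest mRNA value of any histone gene. The H4 gene his-37, which overlaps the protein-coding gene nstp-10, had 136 and 324 FPKM. The H1 gene his-24 had 1.63 and 25.9 FPKM. Next came his-35 with 173 and 133, his-71 with 71.9 and 43.1, and his-68 (H2A) with 112.7 and 44.6 FPKM.

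**Figure D5:**
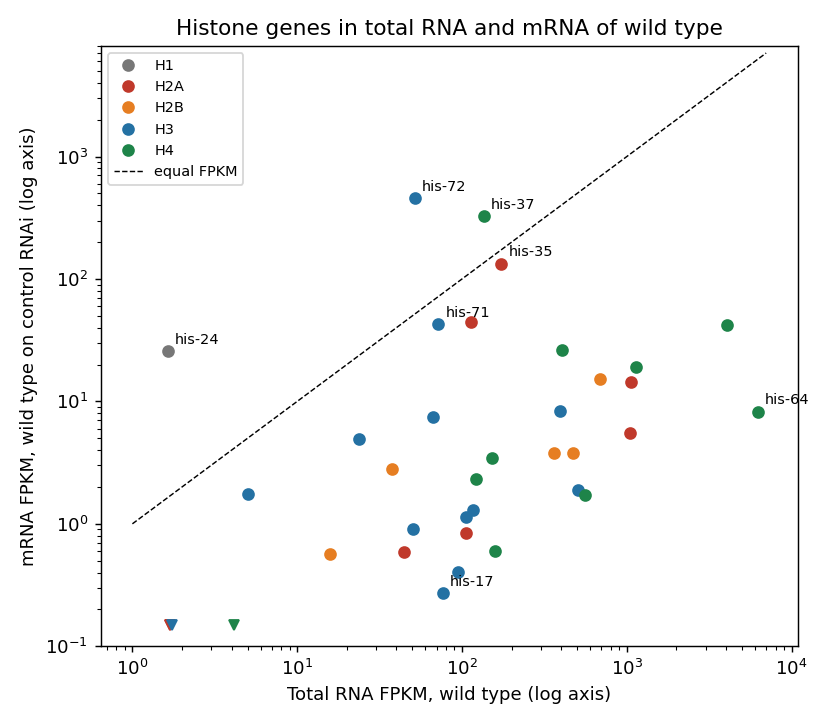
Total RNA FPKM against mRNA FPKM (log axes) in wild type for the 37 histone genes of at least 1 FPKM in total RNA, coloured by class. The dashed line is equal FPKM, and triangles at the lower edge are 4 genes listed at 0 in mRNA. Most points lie well below the line, and his-24, his-37 and his-72 lie above it.

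Small RNA and RNA levels were set side by side across the same 37 genes as a description. Spearman's rho was 0.16 between small RNA per kilobase and total RNA FPKM, and 0.48 between total RNA and mRNA FPKM. Between the adr-1;adr-2 differences in small RNA and in total RNA it was 0.088. By class this last rho was 0.62 over 13 H2A and H2B genes and 0.41 over 23 H3 and H4 genes. The genes share libraries, and many share sequence. The H1 gene his-24 lay at the extreme of small RNA, with 706 CPM per kilobase, and had 1.63 FPKM in total RNA. The H4 gene his-31 followed with 70.7 CPM per kilobase.

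In mRNA each condition had 1 library, so differences have no replicate check, and a gene was counted where FPKM plus 1 differed by 4-fold or more. On control food his-24 was higher in the triple mutant, at 138 FPKM against 25.9, where 2.44% of all genes were higher. In the list of other histone and H1 genes, hil-3 (47.3 against 9.55 FPKM) and hil-7 (45.8 against 4.47) also passed this fold. The other genes of that list did not. The H4 gene his-38 was lower, at 5.18 FPKM against 26.3, where 1.23% of all genes were lower. On nrde-3 RNAi food his-11 had 17 FPKM in the triple mutant against 2.64 in wild type, and his-25 had 4.81 against 0.38. On this food 1.9% of all genes were higher and 1.1% lower, among them 0 histone genes.

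The direction of his-11 and his-25 on nrde-3 RNAi food was opposite to that in total RNA, where the triple mutant was lower. On control food the same genes had 5.97 and 1.52 FPKM in the triple mutant and 3.77 and 1.13 in wild type. On drh-1 RNAi food they had 18.3 and 3.97 FPKM against 6.34 and 0.83. No histone gene reached the fold on drh-1 RNAi food, where 1.92% of all genes were higher and 1.09% lower.

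Neither RNAi food moved a histone gene by 4-fold against control food within a genotype. The background for higher genes was 0.778% on drh-1 and 1.01% on nrde-3 RNAi in wild type, and 0.799% and 0.829% in the triple mutant. For lower genes it was 0.86% and 0.842% in wild type and 2.2% and 1.29% in the triple mutant. The H3.3 genes were steady by this measure: his-72 spanned 452 to 748 FPKM over the 4 libraries of the nrde-3 table and his-71 spanned 43.1 to 89.7. On control food 17 sperm genes were at least 4-fold higher in the triple mutant, against 2.44% of all genes, and 0 were lower. Sperm was the only marker list with a member past that fold, and its part in the his-24 value was not tested.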

How the data were processed

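Whole adults gave 8 small RNA, 8 total RNA and 6 mRNA libraries. Build WBcel235 and the tools BWA, Cuffdiff, Cufflinks, DESeq2, featureCounts, TopHat2 and Trim Galore are named in the submitters' processing notes. Their versions and settings were not stated in the sources used here. For small RNA the authors deposited a signal per gene, which is reads scaled by 1 factor per library, and whole reads were recovered for 100% of values within 0.01 read. Recovered depth limits precision of low genes. For total RNA the authors deposited an FPKM value with bounds for each genotype, and for mRNA an FPKM value for each library. Depth of the FPKM libraries is unknown.

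Small RNA was tested with limma 3.58.1 (trend, R 4.3.3) on log2(value + 1), on genes averaging 10 or more, with Benjamini-Hochberg adjustment over all genes tested. For adr-1;adr-2 against eri-6 the recovered reads of 6 libraries were TMM scaled as log2 CPM with a prior count of 1. Alternatives used edgeR 4.0.16, DESeq2 1.42.0, other pseudocounts, filters, scalings and left-out libraries. Total RNA was called where bounds did not overlap, and mRNA where FPKM + 1 differed by 4-fold or more. Medians in total RNA and mRNA used genes of at least 1 FPKM. Scripts were tested on simulated data and used Python 3.11.15 and matplotlib 3.10.9.

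Members were joined by gene ID, and IDs with more than 1 entry in a FPKM table were left out. A planned assignment of classes by protein alignment was not run. Classes came from a written list and were checked against gene length, and coordinates are those of RefSeq genes on WBcel235. Genes named in the text were the 10 largest and 5 smallest small RNA differences, genes called in total RNA, genes at 4-fold in mRNA, replacement and variant genes, the anchors his-1 to his-4, and the extremes of a class in wild type. Other names serve to complete a count, and his-2, his-40, his-61, his-62, his-68 and genes beside them were also shown after their values were seen. The members and all gene lists were chosen with earlier results of these data known. Two-sided tests were used throughout.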

Additional observations from a re-analysis of the deposited data

Results flagged for a closer look

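Small RNA of his-16, his-72 and his-31 differed from wild type in opposite directions in adr-1;adr-2 and eri-6. In these 3 genes every library of each mutant lay on its own side of wild type. The share of all genes that did so is not given here, and the comparisons share their wild-type libraries. In eri-6 the differences of his-16 and his-72 were smaller than their SE, 0.91 and 0.71. The log2 differences were 2.17 in adr-1;adr-2 and −0.11 in eri-6 for his-16, −0.59 and 0.23 for his-72, and −1.66 and 1.00 for his-31. Set directly against each other, adr-1;adr-2 and eri-6 did not differ past the limma adjusted p of 0.05 in any of them, and his-31 had a log2 difference of −2.59 ± 0.94 (SE), adjusted p = 1.00.

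In mRNA, with 1 library per condition and no test of the difference, drh-1 RNAi food went with more his-24 in wild type, at a log2 difference of 1.21, and less in the triple mutant (adr-1 eri-6;adr-2), at −1.0. On nrde-3 RNAi food his-8 had 1.13 in wild type and −1.04 in the triple mutant, from values between 0.57 and 2.43 FPKM.

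The H2B gene his-41 and the gene his-74 have these names only in the reference table and so lie outside the 70 genes. For his-41 small RNA was 996 and 1347 normalised reads in adr-1;adr-2 and 108 and 141 in wild type, a log2 difference of 3.22. For his-74 it was 204 and 304 normalised reads in adr-1;adr-2 and 356 and 474 in wild type, a log2 difference of −0.72, and neither gene passed the limma adjusted p of 0.05.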

How the results depend on the processing

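In adr-1;adr-2 against wild type, DESeq2 called 9 histone genes where limma called 0, the median over all histone genes was 1.18 with a pseudocount of 10, and the H4 median turned from −0.045 to 0.032 with TMM scaling and 0.021 with edgeR. In eri-6 against wild type, the H2B median turned to −0.043 with DESeq2, −0.017 with TMM and −0.059 with edgeR, the H2A median to −0.019 with TMM, the histone median was 0.066 with TMM, and 0 genes were lower without overlap. In adr-1;adr-2 against eri-6, DESeq2 gave a median of 1.52 with 12 calls, edgeR a median of 1.55, and the replicate block 10 calls; the cause was not tested. Same-numbered libraries deviated together across all genes, at r of 0.58 to 0.71, which is a hint from the data with only 2 numbers. The block changed no other call. Shares of all genes called by DESeq2 or with the block are not given here, so those calls have no background.

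Leaving out 1 library at a time moved the adr-1;adr-2 median between 1.14 and 1.96, its H4 median between −0.42 and 0.25, its limma calls between 0 and 2, and its lower genes without overlap between 6 and 16. It moved his-70 between −3.71 and 2.18. Against eri-6 the median lay between 1.11 and 1.91, the H4 median between −0.72 and 0.43, and the genes without overlap between 37 and 57 higher and 3 and 19 lower. In eri-6 against wild type the ranges were −0.20 to 0.44 for all histone genes, −0.29 to 0.33 for H2A, −0.44 to 0.58 for H2B, −0.19 to 0.27 for H3 and −0.16 to 0.86 for H4, with 7 to 42 genes higher and 1 to 27 lower without overlap. Single genes ranged from −0.18 to 1.18 (his-1), −0.037 to 0.95 (his-10), −1.27 to 0.16 (his-17), −1.09 to 0.25 (his-20), −1.22 to 0.38 (his-22), −0.020 to 1.24 (his-29), −0.42 to 1.36 (his-5), −0.43 to 1.87 (his-50) and −1.17 to 0.14 (his-73).

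In total RNA a fold of at least 2 in place of the bounds gave 0 higher in adr-1;adr-2, 1 higher and 3 lower in eri-6, 1 lower in the triple mutant against adr-1;adr-2 and 3 higher against eri-6. Median-ratio scaling, added after seeing the data, gave 3 lower in eri-6, and a pseudocount of 0.1 moved the median of the triple mutant against adr-1;adr-2 to 0.57. In mRNA a fold of at least 2 gave, as higher and lower genes in the triple mutant against wild type, 4 and 4 on control, 5 and 2 on drh-1 and 2 and 3 on nrde-3 food. Against control food it gave 3 and 0 (drh-1) and 2 and 2 (nrde-3) in wild type, and 6 and 1 and 4 and 4 in the triple mutant. A pseudocount of 0.1 gave 4 and 4, 6 and 2, 5 and 2, then 1 and 3, 1 and 3, 2 and 2, and 2 and 4 in the same order of comparisons. No library could be left out in total RNA, with 1 value per genotype, or in mRNA. Of 890 alternative values, 743 kept direction and call, 85 moved, 29 gained a call and 33 changed direction. Low counts of single copies and 2 libraries per group limit precision.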
